A study of Mus musculus with 12 samples.

Results

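Hippocampal RNA of male mice carrying 1 mutant copy of Chd8 was compared with that of wild-type males in 6 of the 12 sequenced libraries, 3 of each genotype. The mice were C57BL/6 at postnatal day 25 in every group. The mutant allele is labelled CHD8 Asn2373LysfsX2, a frameshift that replaces asparagine 2373 with lysine and ends the reading frame shortly after, and the mutants are heterozygous. The remaining 6 libraries, 3 of wild-type and 3 of heterozygous females of the same age and strain, are used here only to set male values beside female ones. The members of the comparison were taken from the sample titles, so no measured value chose them. Whether each library stands for its own animal is not stated in the labels, and the p-values then cover only library-to-library spread, part of which may be technical.

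CHD8 is an ATP-dependent chromatin remodeller of the chromodomain helicase family that binds near the promoters of many active genes. Loss of 1 copy in people is among the best established genetic causes of autism. In the brain the protein is known for regulating neural progenitors and the maturation of oligodendrocytes, the myelin-forming cells, and it has been linked to Wnt/beta-catenin and p53 target genes.

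Values are normalized counts, that is, reads per gene scaled by a single factor for each library. A log2 difference is the mean log2(value + 1) of the mutant males minus that of the wild-type males, given ± its standard error, and adjusted p-values are Benjamini-Hochberg values from limma over the 17473 genes with a mean of at least 10 unless another tool is named. Recovered reads numbered 26912998 to 33327314 in the wild-type males and 23721482 to 24654408 in the mutant males. Every mutant male library was thus shallower than every wild-type male library, and depth and genotype cannot be told apart. The female libraries share this limit, with 30016094 to 32284243 reads in wild type and 23803605 to 24580863 in mutants. Markers of the dentate gyrus (Prox1, 4332 to 4801 normalized counts) and of the CA1 field (Spink8, 264 to 413) were present in all 6 libraries, as were markers of the tissues around the hippocampus. Y-linked genes had a mean log2 level of 10.3 to 10.5 in the 6 male libraries and 1.38 to 2.18 in the 6 female ones, as labelled.

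The altered codon is shown with the coding sequence around it because it is the position that defines the mutant group. Codon 2373 of the 2582 codons of Chd8 lies at chr14:52201700-52201702 (GRCm38, minus strand), in coding exon sequence of the transcript Chd8-201, exon 36 of 37. The sense strand of the GENCODE M21 transcript reads, with codon 2373 in capitals and 30 bases on each side in lower case:
Chd8 codon 2373: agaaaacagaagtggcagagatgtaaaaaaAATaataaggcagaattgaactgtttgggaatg
The deposited values count reads per gene, so the wild-type and mutant alleles could not be counted apart.

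Chd8 itself (ENSMUSG00000053754, chr14:52198151-52257780, minus strand) was lower in the mutant males. Wild-type males 1 to 3 had 2751, 2994 and 2855 normalized counts, and mutant males 1 to 3 had 2423, 2383 and 2508. The 2 sets did not overlap, and the 3 mutant values lay close together. The means were 2866 ± 122 and 2438 ± 64.0 (SD, n = 3 each), a level 14.9% lower and a log2 difference of -0.23 ± 0.04. Over all genes tested the limma adjusted p was 0.370 (unadjusted 0.000495) and that of edgeR 0.357, while DESeq2 gave 0.0158. An exact two-sided permutation test of Chd8 alone gave p = 0.1, the smallest value that 3 libraries against 3 allow. The difference from the wild-type males was -0.24 in mutant male 1 and -0.23 in mutant males 2 and 3. Without mutant male 1 the limma adjusted p was 0.0177, and without each of the other 5 male libraries in turn it was 0.256 to 0.688. In females the log2 difference was -0.22, from 2893, 2845 and 2872 in wild type to 2477, 2426 and 2513 in mutants.

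**Figure D1:**
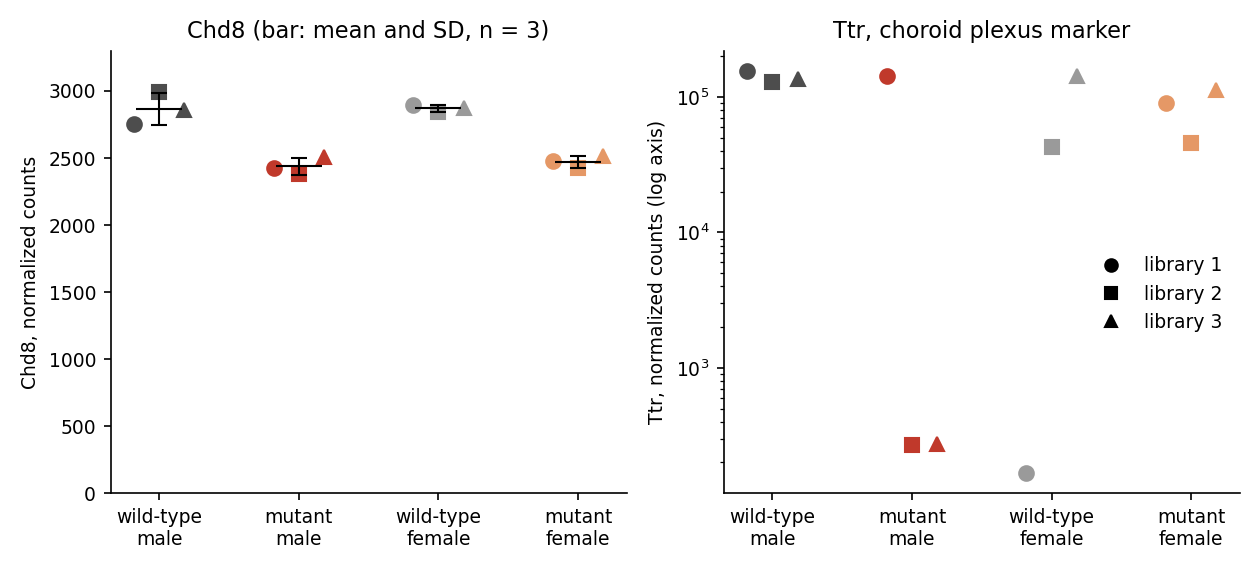
Normalized counts of Chd8 (linear axis, with mean and SD) and Ttr (log axis) in the 12 libraries, 3 points per group of genotype and sex. Chd8 lies at 2383 to 2508 in the mutant males, below all wild-type males, whereas Ttr is at 269 and 274 in mutant males 2 and 3 and to 167 in wild-type female 1.

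Mutant males 2 and 3 stood apart from the other 4 male libraries in their choroid plexus RNA. The choroid plexus is the epithelium that secretes cerebrospinal fluid; it lies in the ventricle against the hippocampus. Ttr, which encodes the thyroid hormone carrier transthyretin and is its most typical product, had 156059, 129048 and 135145 normalized counts in wild-type males 1 to 3. Mutant male 1 had 143001, and mutant males 2 and 3 had 269 and 274. Mutant male 1 therefore lay within the wild-type range, and the other 2 lay far below it. The log2 difference of Ttr from the wild-type males was 0.03 in mutant male 1 and -9.002 in mutant males 2 and 3.

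The same split held for the whole list of 20 choroid plexus epithelium markers. All 20 had a lower mean in the mutant males, with a median log2 difference of -3.18, made up of 0.05 in mutant male 1 and -4.81 in mutant males 2 and 3. The summed level of the list was 216432 to 268638 normalized counts in the wild-type males, 242695 in mutant male 1, and 6812 and 7636 in mutant males 2 and 3. None of the 20 was at 0 in any male library. Folr1, the choroidal folate receptor, had 1225, 1161 and 1043 in wild-type males and 1167, 14.7 and 33.7 in mutant males. Enpp2, which encodes autotaxin and is also made by oligodendrocytes, had 86574, 66462 and 73081 against 76349, 5449 and 6288. The mean log2 level of the 20 genes, used below as the choroid plexus score, was 10.50 ± 0.17 (SD, n = 3) in wild-type males and 10.56, 5.08 and 5.41 in mutant males 1 to 3.

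A wild-type library had the same property. Wild-type female 1 had 167 normalized counts of Ttr and a choroid plexus score of 4.81, against 43047 and 142855 and scores of 8.92 and 10.62 in wild-type females 2 and 3. Low choroid plexus RNA was thus seen in 2 of 6 mutant libraries and in 1 of 6 wild-type libraries. In bulk RNA, fewer cells of a type and less RNA per cell cannot be told apart.

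The genes that were far lower in mutant males 2 and 3 were, for the most part, also lower in that wild-type library. In mutant males 2 and 3, 351 genes were at least 2-fold below the wild-type male mean, and 118 were at least 4-fold below it, all 20 choroid plexus markers among these. Of the 351, 332 were lower in wild-type female 1 than in wild-type females 2 and 3, and 228 of them at least 2-fold, where 50.7% of all tested genes were lower in that library. In mutant male 1, 129 genes were at least 2-fold below the wild-type males and 12 at least 4-fold. At least 2-fold above the wild-type males were 36 genes in mutant males 2 and 3 and 45 in mutant male 1.

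**Figure D2:**
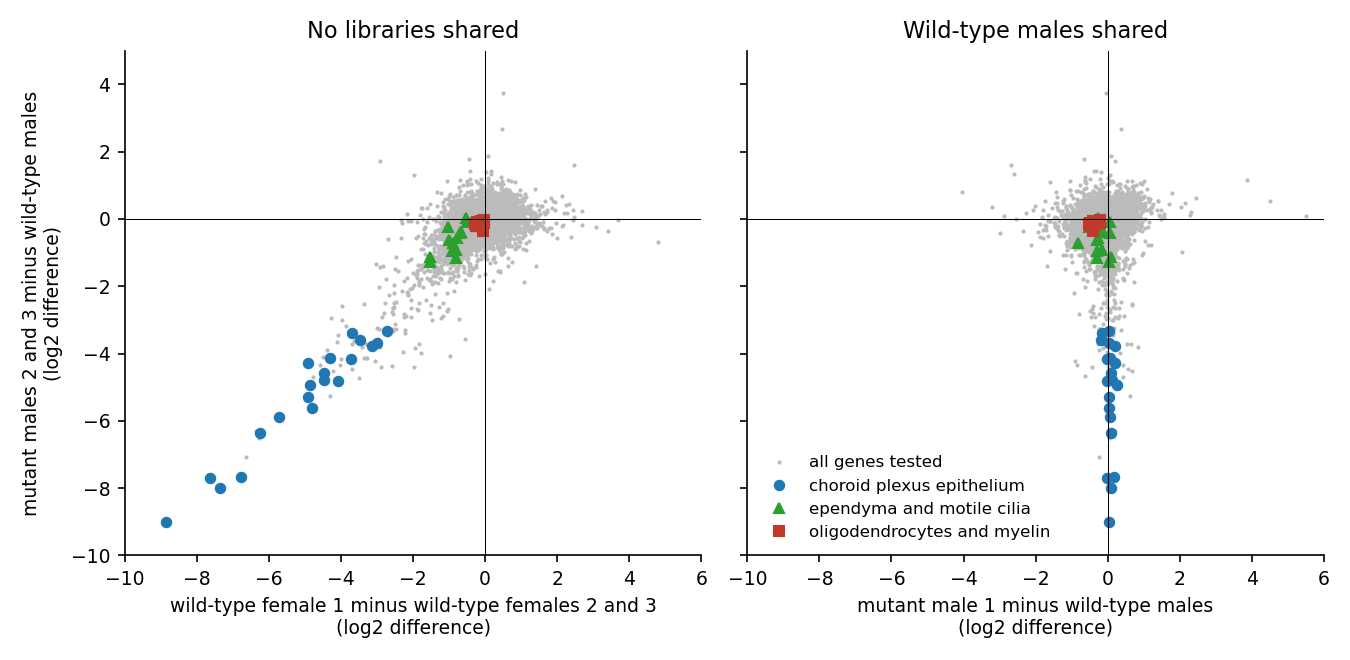
Each point is 1 gene. The vertical axis is the log2 difference of mutant males 2 and 3 from the wild-type males; the horizontal axis is wild-type female 1 minus wild-type females 2 and 3 in 1 panel, with no library in common, and mutant male 1 minus the same wild-type males in the other, with the wild-type males in common. The choroid plexus genes lie far below 0 on both axes of the first panel and near 0 on the horizontal axis of the second.

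Ependymal cells, the ciliated cells that line the ventricle, had lower marker levels in the same libraries and also in mutant male 1. All 14 genes of the ependyma and motile cilia list had a lower mean in mutant males, where 49.4% of all tested genes did, and the 3 mutant values lay below all 3 wild-type values for 6 of the 14 (7.71% of all genes). The median log2 difference was -0.28 in mutant male 1 and -0.60 in mutant males 2 and 3. The summed level was 2879 to 3330 normalized counts in wild-type males and 2679, 1653 and 2413 in mutant males 1 to 3. Foxj1, the transcription factor of motile cilia, had 749, 748 and 749.7 in wild-type males and 675, 335 and 465 in mutant males (log2 difference -0.67, limma adjusted p 0.374). Mutant male 2 was the lowest and mutant male 1 came near the wild-type values. In a fit of all 12 libraries that included the choroid plexus score, the list's median male difference was -0.11. In wild-type female 1 all 14 genes were lower than in wild-type females 2 and 3, with a median of -0.81.

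Across all genes, no gene passed an adjusted p of 0.05 with limma, edgeR or limma-voom. The unadjusted p was under 0.05 for 1954 genes (11.2%) with limma, 1784 (10.2%) with edgeR and 2002 (11.5%) with limma-voom, and the smallest limma adjusted p was 0.274. DESeq2 called 58 genes (0.332%), 16 higher and 42 lower in the mutant males, which are 0.0916% and 0.24% of the genes tested. All 58 had non-overlapping values in the 2 genotypes, as had 2810 (16.1%) of all genes tested. A call from 3 libraries against 3 favours such genes, so this is partly built in. Non-overlap by itself fixes that mutant male 1 differed in the same direction as mutant males 2 and 3.

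The lower and the higher genes were related to the choroid plexus score to a different extent. In the 12-library fit 875 genes (5.01%) changed with the score at an adjusted p of 0.05 by limma, 686 upward (3.93%) and 189 downward (1.08%). Of the 1183 genes lower in mutant males at an unadjusted p under 0.05 (6.77%), 409 or 34.6% were among these. Of the 771 higher ones (4.41%), 5 or 0.649% were. The change with the score was fitted in part on the differences among mutant males 1 to 3, whose values also make up the male difference. The 20 genes of the score are themselves among the 409. These shares, and the like ones given below, are therefore partly built in. The median log2 difference of the lower genes was -0.16 in mutant male 1 and -0.43 in mutant males 2 and 3, and that of the higher genes 0.14 and 0.16. Among the 58 genes of DESeq2, 17 changed with the score.

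Leaving out mutant male 1, which has wild-type choroid plexus RNA, gave 829 genes past the limma threshold, 99 higher (0.567%) and 730 lower (4.18%), of which 528 changed with the choroid plexus score. Mutant male 1 alone against the 3 wild-type males gave 158, 40 higher (0.229%) and 118 lower (0.675%), with the spread taken from the wild-type males alone and the single mutant library assumed to vary like them. The 12-library fit with this covariate gave 0 genes by limma (1439 at an unadjusted p under 0.05, 8.24%, smallest adjusted p 0.439). The same covariate in the 6 male libraries gave 62, 23 higher (0.132%) and 39 lower (0.223%), a fit in which the genotype difference rests on mutant male 1, since no wild-type male had a low score.

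Among all genes tested, the 3 mutant values lay above all 3 wild-type values for 1463 genes (8.37%) and below them for 1347 (7.71%). Of the 1463, 4 changed with the choroid plexus score, and of the 1347, 163 did. The 10 genes with the smallest p in each direction are described next, taken from those with a mean of at least 50 and a log2 difference under 0.5 in size between wild-type female 1 and the other wild-type females. These 20 genes had been chosen for non-overlap and for a small p, so their separation is a description. Their names are given in order of what they do in the cell.

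Several of the higher genes act in neuronal membranes and secretion. Basp1 (chr15:25363277-25413764, minus strand), a membrane-bound protein of growth cones and nerve terminals, had 8014, 7512 and 7745 normalized counts in wild-type males and 9041, 9109 and 9455 in mutant males. All 3 mutant values were higher and of similar height (log2 difference 0.25 ± 0.04, limma adjusted p 0.274, DESeq2 0.000148). Pcsk1n (chrX:7919822-7924410, plus strand) encodes proSAAS, a granin-like inhibitor of a prohormone-processing protease. It had 6397, 6197 and 5969 in wild-type males and 7454, 7938 and 7235 in mutant males (0.29 ± 0.04, limma adjusted p 0.274, DESeq2 0.000148). The 2 sets were again apart, with mutant male 2 the highest.

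Lingo1, a component of the Nogo receptor complex that restrains axon growth and myelination, had 5269, 5173 and 5165 normalized counts in wild-type males and 5954, 5994 and 5907 in mutant males. The values within each genotype were nearly level (log2 difference 0.19 ± 0.03, limma adjusted p 0.274, DESeq2 0.00522). Ptpro, a receptor-type tyrosine phosphatase of neurons, had 1704, 1769 and 1739 against 2085, 2005 and 2146 (0.26 ± 0.04, limma adjusted p 0.274, DESeq2 0.00921). Every mutant male lay above every wild-type male. Nptx2, a secreted pentraxin that clusters AMPA receptors at synapses and is induced by neuronal activity, had 597, 683 and 696 against 812, 882 and 913. Its log2 difference was 0.40 ± 0.07 (limma adjusted p 0.370, DESeq2 0.0109), the largest of the 10, and 0.28 with the choroid plexus covariate.

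Tmem145, a transmembrane protein, had 757, 753 and 734 normalized counts in wild-type males and 974, 925 and 882 in mutant males (0.31 ± 0.05, limma adjusted p 0.344, DESeq2 0.0428). Fgf14, an intracellular growth factor homologue that binds voltage-gated sodium channels, had 670.3, 681 and 708 against 861, 806 and 808 (0.26 ± 0.05, limma adjusted p 0.370, DESeq2 0.147). For both genes mutant male 1 was the highest of the 6. Gng2, a G protein gamma subunit, Mif, a cytokine, and Sh3bgrl3, a small thioredoxin-like protein, differed by 0.14, 0.18 and 0.22. DESeq2 called 6 of the 10 higher genes.

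The lower genes include scaffolds, secretory factors and regulators of the cytoskeleton. Erbin (chr13:103818787-103920514, minus strand), a scaffold that binds the receptor ErbB2, had 3288, 3305 and 3314 normalized counts in wild-type males and 2821, 2708 and 2809 in mutant males. It had the smallest p of all named genes (log2 difference -0.25 ± 0.03, unadjusted p 5.9e-05 by limma, adjusted 0.274, DESeq2 0.00184). Ddr1 (chr17:35681567-35704621, minus strand), a collagen-binding receptor tyrosine kinase, had 3847, 3902 and 3997 against 3296, 3059 and 3329 (-0.28 ± 0.04, limma adjusted p 0.274, DESeq2 0.000588). Neither gene's values overlapped between the genotypes. Stxbp2, a Munc18 protein of regulated secretion, had 1234, 1198 and 1144 against 929.6, 958 and 951 (-0.33 ± 0.05, limma adjusted p 0.274, DESeq2 0.00628).

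Dock5 (chr14:67752135-67933442, minus strand), which activates the GTPase Rac, had 625, 549 and 592 normalized counts in wild-type males and 390.2, 445 and 378 in mutant males. Its log2 difference, -0.54 ± 0.08, was the largest in size of the 10 lower genes (limma adjusted p 0.274, DESeq2 0.00196). Hist1h1c, a linker histone, had 669, 712 and 663 against 526, 516 and 469 (-0.44 ± 0.07, limma adjusted p 0.274, DESeq2 0.00628). Dnah9, an axonemal dynein heavy chain, had 1212, 1146 and 1206 against 939.5, 961 and 963 (-0.32 ± 0.04, limma adjusted p 0.274, DESeq2 0.00921). Each of the 3 mutant libraries was low for these 3 genes, mutant male 1 included.

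Plekhg3, a guanine nucleotide exchange factor, Sft2d2, a vesicle transport protein, Atp11a, a phospholipid flippase, and Gm43549, a long intergenic noncoding RNA, differed by -0.35, -0.32, -0.22 and -0.53. DESeq2 called all 10 lower genes. Lat2, an adaptor of immune receptor signalling, was among the 10 lower genes of smallest p but not among these, being below the mean of 50. It had 48.4, 60.7 and 60.5 normalized counts in wild-type males and 23.2, 26.1 and 26.1 in mutant males (log2 difference -1.13 ± 0.19, limma adjusted p 0.325).

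**Figure D3:**
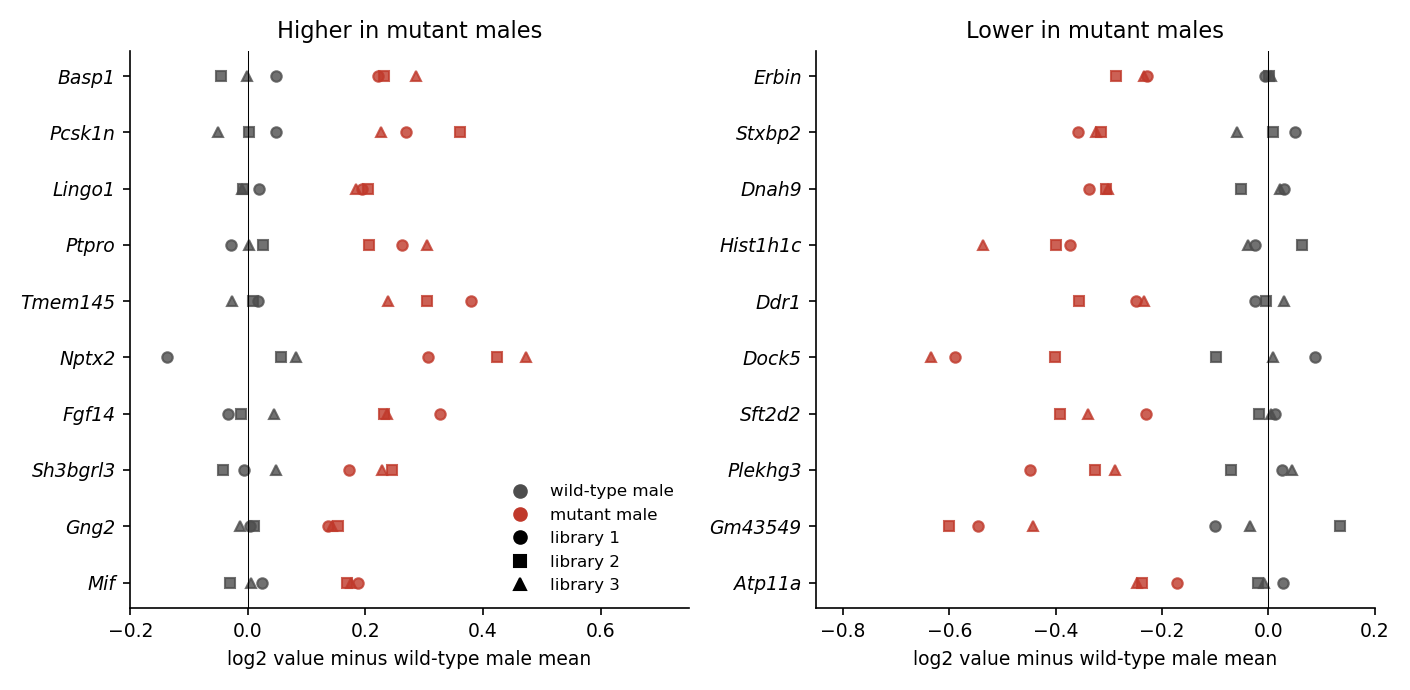
Log2 normalized counts of 20 genes in the 6 male libraries, each relative to the wild-type male mean of that gene; colour marks genotype and symbol the library. For all 20 genes the 3 mutant males lie on 1 side of the 3 wild-type males, by up to 0.40 in the mean for the higher and -0.54 for the lower genes.

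The choice of these genes by non-overlap fixes their direction when a library is left out. Their levels also differed in the library low in choroid plexus RNA among the wild-type females. Wild-type female 1 lay above wild-type females 2 and 3 for 7 of the 10 higher genes (median log2 difference 0.12) and below them for 9 of the 10 lower genes (-0.23). Dock5, for example, had 416 normalized counts there against 494 and 613. With the score as a covariate the male differences were 0.14 to 0.31 for the higher and -0.49 to -0.13 for the lower genes. For Sft2d2 the change with the score itself passed the limma threshold (adjusted p 0.0386).

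In the female libraries the differences were smaller in size. The 20 genes had been chosen for a small p in males, which by itself favours larger male than female differences. The wild-type females had also entered the choice of these genes through the limit on wild-type female 1. The female values are therefore given as a description. Of the 10 higher genes 9 had a female difference above 0, from -0.12 (Tmem145) to 0.15 (Nptx2). Of the 10 lower genes 8 had one below 0, from -0.14 (Stxbp2) to 0.16 (Dock5). Taking every gene that met the non-overlap and level conditions, 54.7% of 1285 higher and 54.8% of 972 lower genes had the same sign in females, beside 48.7% and 51.3% of the 13261 genes eligible. The test of the difference between the male and the female effect gave 0 genes at an adjusted p of 0.05 by limma (1373 at an unadjusted p under 0.05, 7.86%) and 0 by edgeR (1202, 6.88%), with a smallest limma adjusted p of 0.616. The smallest unadjusted limma values among the 20 were 0.00159 for Sft2d2, 0.00308 for Dnah9 and 0.00378 for Dock5. Since the male values chose these genes, these p-values are also only a description.

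Oligodendrocyte genes were lower in the mutant males, most of all in mutant male 1. All 20 genes of the oligodendrocyte and myelin list were lower in mutant male 1 and all 20 in the mean of mutant males 2 and 3, with a median log2 difference of -0.41 and -0.14, and -0.24 over the 3. None passed limma's threshold; 15 had an unadjusted p under 0.05 (6.77% of all genes were lower at that p), 4 had mutant values below every wild-type value (20%, against 7.71% of all genes), and DESeq2 called Mobp and Mal (0.24% of all genes were called lower). The median of all genes tested was 0.0017. The list's mean log2 level was 12.77, 12.67 and 12.79 in wild-type males and 12.34, 12.49 and 12.70 in mutant males, so mutant male 3 lay within the wild-type range.

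Mobp (chr9:120149707-120181484, plus strand), a structural protein of compact central myelin, had 55604, 52847 and 58064 normalized counts in wild-type males and 39211, 46838 and 48963 in mutant males. The mutant values were all lower, that of mutant male 1 by the most (log2 difference -0.31 ± 0.08, limma adjusted p 0.370, DESeq2 0.00628). Mbp, myelin basic protein, had 152216, 135324 and 150252 against 112964, 129880 and 141744, a difference of -0.19, with mutant male 3 inside the wild-type range.

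Mal, a myelin raft proteolipid, had 21309, 19871 and 21978 normalized counts against 15784, 16866 and 19795 (-0.27, DESeq2 adjusted p 0.0285). Enpp6, a choline phosphodiesterase of newly formed oligodendrocytes, had 725, 689 and 735 against 538, 471 and 669 (-0.37 ± 0.11). For both, mutant male 3 was just below the lowest wild-type value. Aspa, which breaks down N-acetylaspartate, was the other gene whose values did not overlap. With the choroid plexus covariate in 12 libraries the list median was -0.28, and in females it was -0.23 with 20 of 20 genes lower. In wild-type female 1, all 20 genes were also lower than in wild-type females 2 and 3, with a median of -0.18.

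Precursors of oligodendrocytes showed less of this. Of 12 precursor genes 10 were lower, with a median of -0.05. For none did the mutant values separate from the wild-type ones, where 8.37% of all genes separated upward and 7.71% downward. A list of 12 genes is too short to tell 0 from these shares. Sox10, the transcription factor of the whole lineage, had 1592, 1634 and 1631 normalized counts in wild-type males and 1211, 1420 and 1605 in mutant males. The order of the mutant males was thus the same as for the myelin genes, with mutant male 1 the lowest. Olig1, a transcription factor of the lineage, differed by -0.16 and Gpr17, a receptor of committed precursors, by -0.18. Lingo1, described above as higher, is expressed by neurons as well as by this lineage.

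Genes of excitatory pyramidal neurons were higher in the mutant males by a small amount. All 10 genes of the list were higher, where 50.6% of all tested genes were, with a median log2 difference of 0.15 (0.13 in mutant male 1, 0.15 in mutant males 2 and 3, 0.16 with the choroid plexus covariate). For 5 of the 10 every mutant male lay above every wild-type male (50%, against 8.37% of all genes), and DESeq2 called 3 (0.0916% of all genes were called higher). The list's mean log2 level was 13.08, 13.08 and 13.13 in wild-type males and 13.23, 13.33 and 13.17 in mutant males. Mutant male 2 was the highest, and the 2 sets did not overlap.

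Slc17a7 (chr7:45163949-45176142, plus strand), the vesicular glutamate transporter of cortical excitatory neurons, had 33498, 32830 and 33315 normalized counts in wild-type males and 36860, 37362 and 36155 in mutant males. The 3 mutant values were close to each other and above all wild-type values (log2 difference 0.15 ± 0.03, limma adjusted p 0.370, DESeq2 0.0109). Neurod2, a transcription factor of these neurons, had 3281, 3287 and 3358 against 3892, 4004 and 3588 (0.21 ± 0.05, DESeq2 adjusted p 0.0405). Nrgn, neurogranin, a calmodulin-binding postsynaptic protein, had 21046, 19853 and 21725 against 23643, 25858 and 22893 (0.21, DESeq2 adjusted p 0.0233). In females the list median was -0.01 with 4 genes higher and 6 lower, and the male minus female difference of Slc17a7 had an unadjusted limma p of 0.00548.

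**Figure D4:**
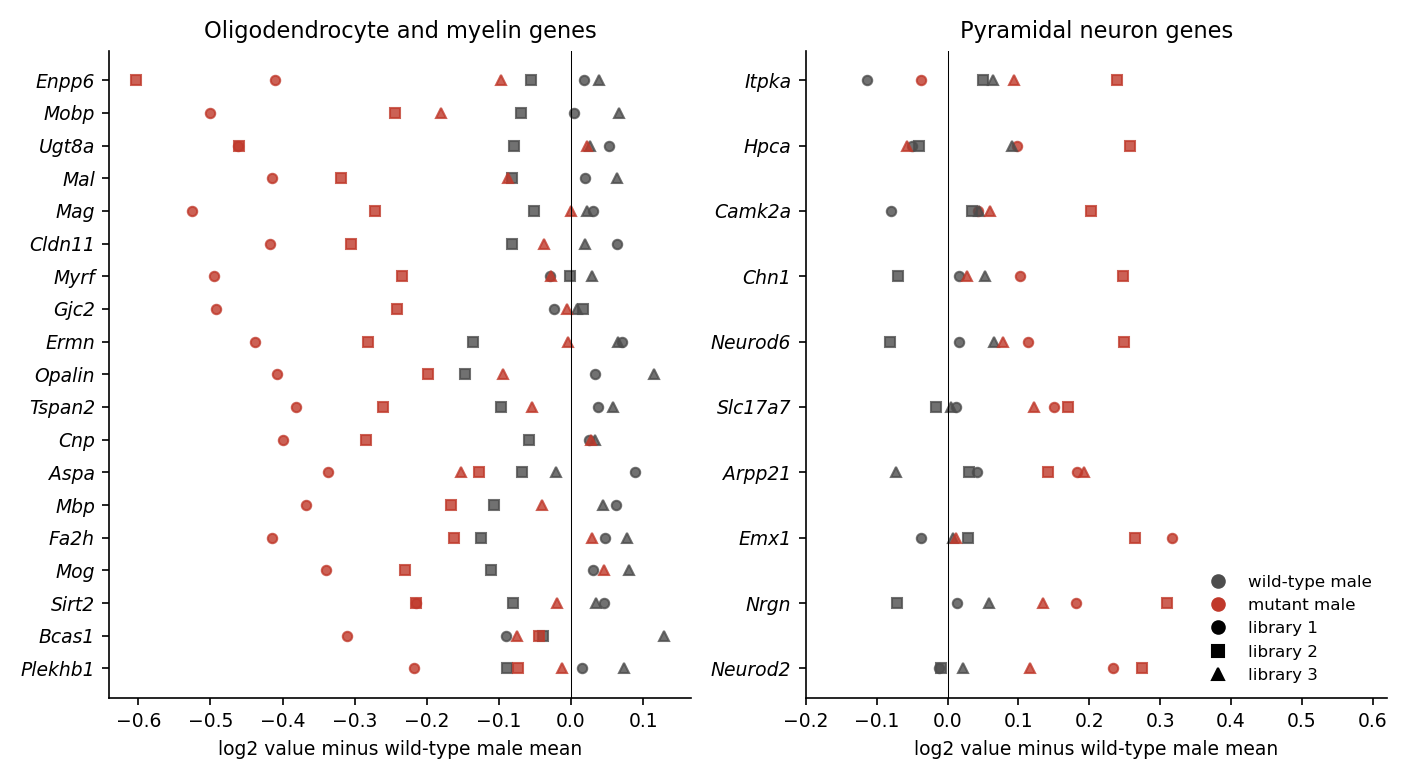
Log2 normalized counts of 19 myelin genes and 10 pyramidal neuron genes in the 6 male libraries, each relative to that gene's wild-type male mean; each line is a gene, colour marks genotype and symbol the library. Most myelin genes lie lowest in mutant male 1 and near the wild-type level in mutant male 3, while pyramidal genes lie higher in mutant male 2 than in any wild-type male.

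Markers of single hippocampal fields did not share one direction. Of 8 CA1 genes 3 were higher and 5 lower, with a median log2 difference of -0.35 in mutant male 1 and 0.11 in mutant males 2 and 3. All 8 were lower in mutant male 1, whereas 6 were higher in mutant males 2 and 3. With the choroid plexus covariate in 12 libraries all 8 were lower (median -0.35). Spink8, a secreted protease inhibitor of CA1 pyramidal cells, had 374, 411 and 413 normalized counts in wild-type males and 264, 304 and 362 in mutant males. It was the 1 separated CA1 gene (12.5%, against 7.71% of all genes). Fibcd1, a CA1 membrane receptor, had 2835, 4451 and 4147 against 2400, 3354 and 5022, a range in which the genotypes overlap fully. Of 6 CA3 genes 4 were higher, with a median of 0.08, and 9 dentate granule cell genes had a median of -0.01, with no separated gene in either list. The 15 inhibitory neuron genes, 13 of them higher (50.6% of all genes were), had a median of 0.04 and no separated gene. Of all genes tested, 8.37% were separated upward and 7.71% downward. Gad1, the GABA-synthesizing enzyme, differed by 0.01.

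Genes induced late by neuronal activity were mostly higher. Of 16 such genes 11 were higher (50.6% of all genes were), and for 8 all mutant males lay above all wild-type males (50%, against 8.37% of all genes). The median log2 difference was 0.15, with 0.16 in mutant male 1, 0.14 in mutant males 2 and 3, and 0.13 with the choroid plexus covariate. None passed limma's threshold, 7 had an unadjusted p under 0.05 (4.41% of all genes were higher at that p), and DESeq2 called Nptx2, given above, and Scg2 (0.0916% of all genes). Scg2, secretogranin II of dense-core vesicles, had 4566, 4835 and 4856 normalized counts in wild-type males and 5863, 5343 and 5359 in mutant males (0.22 ± 0.05, DESeq2 adjusted p 0.0198). Bdnf, the neurotrophin, had 1220, 1178 and 1321 against 1488, 1526 and 1389 (0.24 ± 0.06). Neither set of values overlapped.

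Nr4a3, an orphan nuclear receptor, had 2758, 2737 and 2831 normalized counts against 3062, 3122 and 3077 (0.15), and Vgf, a neuropeptide precursor, had 2362, 2601 and 2436 against 2767, 2747 and 2688. Homer1, a postsynaptic scaffold with an activity-induced short form, differed by -0.00. In females the list's median was 0.03.

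The rapidly induced genes differed less in the median. Of 20 such genes 14 were higher (50.6% of all genes were), with a median log2 difference of 0.06, and 3 were separated upward (15%, against 8.37% of all genes): Egr3, Egr4 and Npas4, all transcription factors. Npas4, which responds to depolarization and directs inhibitory synapse formation, had 255, 212 and 246 normalized counts in wild-type males and 322, 349 and 266 in mutant males (0.39 ± 0.12). Egr4 had 424, 451 and 431 against 477, 549 and 526 (0.25 ± 0.07). Arc, a regulator of AMPA receptor uptake, and Egr1, the most used activity marker, overlapped between genotypes, with differences of -0.09 and 0.07.

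Among 20 neuropeptide and granin genes 14 were higher (50.6% of all genes were), with a median of 0.10, and 3 were separated upward (15%, against 8.37% of all genes), namely Cck, Adcyap1 and Chga. Cck, cholecystokinin, had 4754, 4512 and 4822 normalized counts in wild-type males and 5247, 6095 and 5598 in mutant males (0.26 ± 0.06, DESeq2 adjusted p 0.00628). Adcyap1, which encodes PACAP, had 107, 110.0 and 109.8 against 224, 168 and 137 (0.66 ± 0.17, limma adjusted p 0.370). Mutant male 1 was the highest for Adcyap1, and the wild-type values were nearly equal. Trh, the thyrotropin-releasing hormone precursor, had the largest difference of the list (2.07 ± 0.89, limma adjusted p 0.440), but its values overlapped. It was highest in mutant male 1, at 69.6 normalized counts against 0.807 to 12.5 in the other male libraries.

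All 14 GABA receptor genes had a higher mean in the mutant males, by a median log2 difference of 0.10. The largest of the 14 differences was 0.18, and 3 of them were separated (21.4%, against 8.37% of all genes). None passed limma's threshold, and 5 had an unadjusted p under 0.05 (4.41% of all genes were higher at that p). Gabra4, a subunit of extrasynaptic receptors of dentate granule cells, had 2955, 2867 and 2984 normalized counts in wild-type males and 3276, 3233 and 3085 in mutant males (0.12). Its mutant values all lay above its wild-type ones, as did those of Gabrb1, a beta subunit. In mutant male 1 alone 10 of the 14 were higher, and with the choroid plexus covariate 9 were, with a median of 0.07. Wild-type female 1 was higher than wild-type females 2 and 3 for 10 of the 14. In the female comparison 10 of the 14 were lower, with a median of -0.02. Of 15 ionotropic glutamate receptor genes 13 were higher, with a median of 0.06, but the median was -0.03 in mutant male 1 and -0.02 with the choroid plexus covariate. The kainate subunits Grik2 and Grik5 and the NMDA subunit Grin2d were separated upward (20%, against 8.37% of all genes), with differences of 0.15, 0.13 and 0.26.

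Immature neuron genes were also mostly higher. Of 12 such genes 10 were higher, with a median log2 difference of 0.13 (0.17 in mutant male 1, 0.13 in mutant males 2 and 3, 0.14 with the covariate, -0.00 in females). Draxin, an axon guidance protein, had 99.9, 106 and 92.8 normalized counts in wild-type males and 140.4, 144 and 130.4 in mutant males (0.47 ± 0.12). Neurod1, a transcription factor of newborn granule neurons, had 523, 601 and 586 against 752, 633 and 676 (0.27), and Sox4, a transcription factor of neuronal precursors, had 384, 362 and 327 against 445, 413 and 397. These 3 genes were the separated ones (25%, against 8.37% of all genes). Of 14 genes of proliferating cells 10 were higher, with a median of 0.11, and 4 were separated upward (28.6%, against 8.37% of all genes), Mcm3 and Mcm6 of the replicative helicase (0.20 and 0.13), the chromatin factor Hjurp and the mitotic survivin gene Birc5. The mitotic kinase Aurkb was separated downward (7.14%, against 7.71%).

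**Figure D5:**
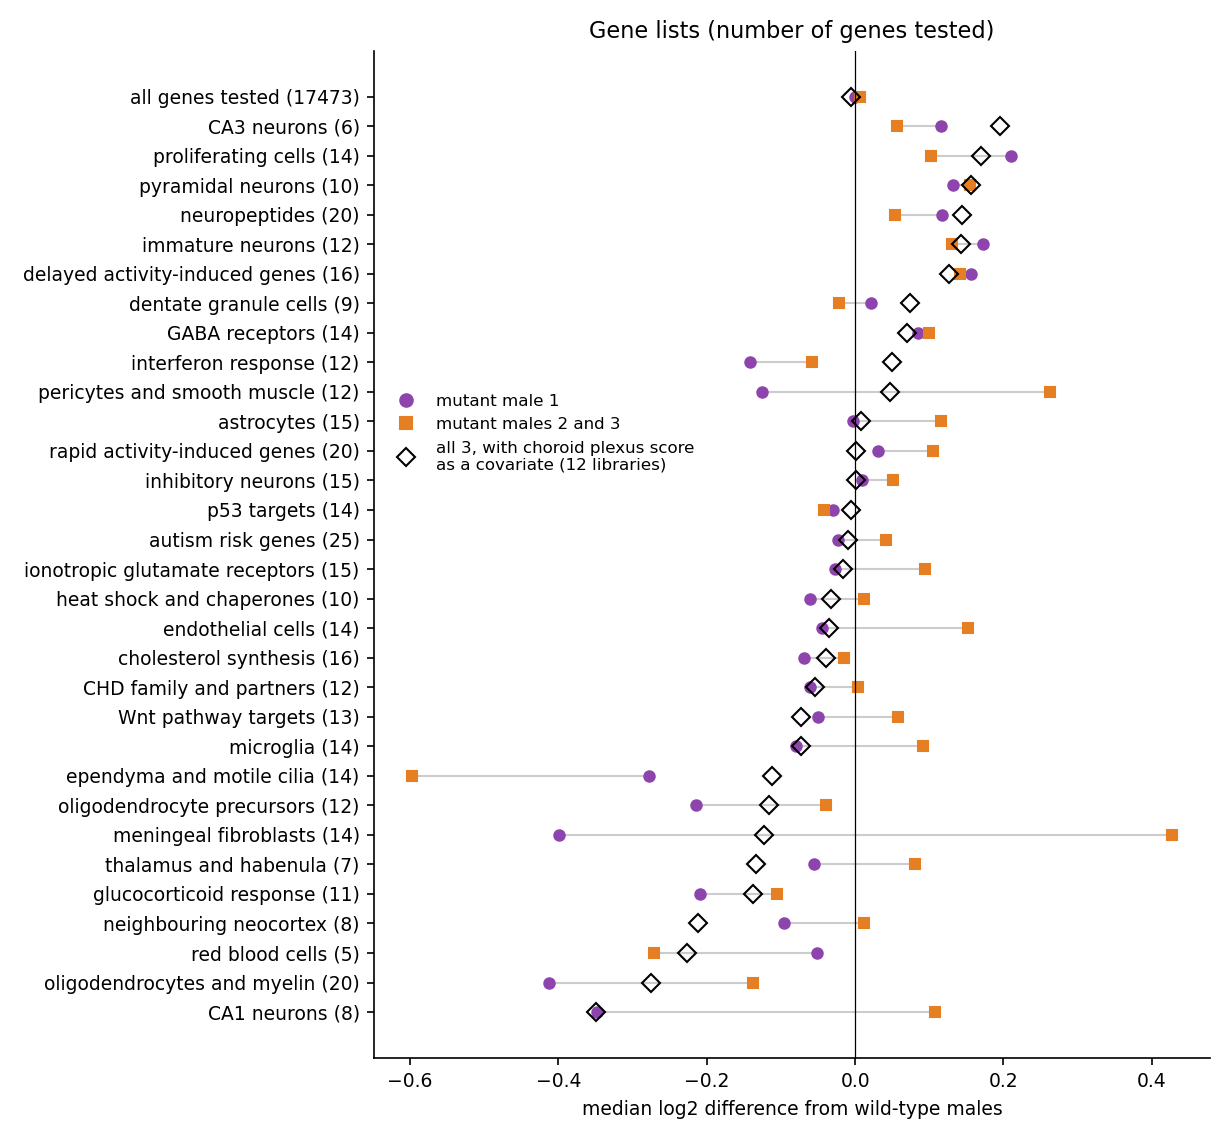
Median log2 difference from the wild-type males for 31 gene lists, without the choroid plexus list, and for all genes: mutant male 1 alone, mutant males 2 and 3, and the male effect in the 12-library fit with the choroid plexus score. Delayed activity-induced and pyramidal genes lie above 0 and myelin genes below 0 in all 3 estimates, whereas fibroblast and CA1 genes change sign between mutant male 1 and mutant males 2 and 3.

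Other glial lists showed small differences that depended on which mutant males were used. Of 15 astrocyte genes 13 were higher, with a median log2 difference of 0.08, which was -0.00 in mutant male 1, 0.12 in mutant males 2 and 3, and 0.01 with the choroid plexus covariate. Agt, angiotensinogen, made by astrocytes, had 605, 606 and 551 normalized counts in wild-type males and 822, 638 and 709.6 in mutant males (0.29 ± 0.09). Of 14 microglia genes 10 were higher, with a median of 0.03, made up of -0.08 in mutant male 1 and 0.09 in the other 2. P2ry12, a purinergic receptor of resting microglia, had 998, 1082 and 1049 against 1151, 1291 and 1190 (0.21), with a female difference of -0.08. Csf1r and Cx3cr1, receptors that define the same cells, differed by 0.01 and 0.05.

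Vessel wall and meningeal genes differed between mutant male 1 and the other mutant males. The pericyte and smooth muscle list of 12 genes had a summed level of 7390 to 7947 normalized counts in wild-type males and of 7796, 10239 and 9573 in mutant males 1 to 3. Acta2, smooth muscle actin, had 293, 382 and 265 in wild-type males and 248, 1035 and 667 in mutant males (0.84 ± 0.43). Cnn1, calponin, had 5.93, 7.59 and 6.46 against 8.84, 54.5 and 42.4. The meningeal fibroblast list of 14 genes had a median of -0.40 in mutant male 1 and 0.43 in mutant males 2 and 3, and summed levels of 11024 to 17759 and 10007 to 13371 in the 2 genotypes. The 14 endothelial genes had a median of 0.07, from -0.04 in mutant male 1 to 0.15 in mutant males 2 and 3. In females the list medians were 0.62 (pericytes and smooth muscle), 1.33 (fibroblasts) and 0.17 (endothelial cells), with every gene higher. Wild-type female 1 differed from wild-type females 2 and 3 by medians of 0.06, -0.07 and 0.05 for the same lists.

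The lists named for known CHD8 pathways had medians near 0. Besides Chd8, 12 genes of the CHD family and its partners were followed: 4 were higher and 8 lower, with a median log2 difference of -0.01 and a range of -0.10 to 0.06. Chd9 and Chd6 were the separated ones, both lower (16.7%, against 7.71% of all genes). Chd9 had 2424, 2530 and 2422 normalized counts in wild-type males and 2321, 2393 and 2320 in mutant males. Of 13 Wnt pathway targets 9 were higher, with a median of 0.01; Axin2, the most direct target of beta-catenin, differed by 0.01. Tcf7, a transcription factor of the pathway, had 109, 104 and 100.1 against 120.5, 141 and 127 (0.31), and was the 1 target separated upward (7.69%, against 8.37% of all genes). Rnf43, a ubiquitin ligase that removes Wnt receptors, and Lef1, a transcription factor of the pathway, were separated downward (-0.35 and -0.27; 15.4%, against 7.71%). The lowest difference was -0.66, that of the secreted Wnt inhibitor Sfrp1, which overlapped between genotypes and was 0.14 in mutant male 1. Of 14 p53 targets 9 were lower, with a median of -0.03. Ccng1 and Phlda3 were separated downward (14.3%, against 7.71% of all genes), with a difference of -0.15 each. Mdm2, the ubiquitin ligase that degrades p53, overlapped between the genotypes.

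Of 25 autism risk genes 19 were higher, but the median was 0.01. In mutant male 1, 11 were higher and 14 lower (median -0.02), in mutant males 2 and 3, 21 were higher, and with the choroid plexus covariate 10 were higher and 15 lower (median -0.01). For 5 of them every mutant male lay above every wild-type male, and for 1 below (20% and 4%, against 8.37% and 7.71% of all genes). Shank3, a postsynaptic scaffold, had 8019, 7979 and 8433 normalized counts in wild-type males and 8550, 9248 and 8759 in mutant males (0.12 ± 0.04). Arid1b, a subunit of the BAF chromatin remodeller, differed by 0.14. The sodium channel gene Scn2a was also separated upward, and the ubiquitin ligase gene Trip12 was the one separated downward.

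Glucocorticoid response genes were mostly lower, 9 of 11, with a median log2 difference of -0.17 (-0.21 in mutant male 1, -0.11 in mutant males 2 and 3, 0.12 in females). Pdk4, a kinase that inhibits pyruvate dehydrogenase, had 269.9, 311 and 317 normalized counts in wild-type males and 234, 230.3 and 227 in mutant males (-0.37 ± 0.09, limma adjusted p 0.370). Sult1a1, a sulfotransferase, was also separated (-0.34 ± 0.12). Pdk4 and Sult1a1 were the 2 separated genes of the list (18.2%, against 7.71% of all genes). Sgk1, the serum and glucocorticoid kinase, had 2534, 2284 and 2815 against 2355, 1523 and 1745, with mutant male 1 within the wild-type range, and Fkbp5, the standard glucocorticoid reporter, differed by 0.02. With the choroid plexus covariate the differences were -0.26 for Pdk4 and -0.07 for Sgk1.

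For the remaining lists the medians were -0.02 for 16 cholesterol synthesis genes, -0.02 for 10 heat shock genes, -0.09 for 12 interferon response genes (0.05 with the choroid plexus covariate), 0.07 for 7 thalamus and habenula genes, 0.00 for 8 neocortex genes and -0.18 for 5 red blood cell genes. Hspa5, the chaperone of the endoplasmic reticulum, had 5769, 6727 and 5856 normalized counts in wild-type males and 5602, 4913 and 5125 in mutant males (-0.23). It was among the 2 heat shock genes separated downward (20%, against 7.71% of all genes). Bst2 and Ifi27, interferon-induced genes, had differences of 0.19 and -0.09 in mutant male 1 and of -1.30 and -1.18 in mutant males 2 and 3, the libraries low in choroid plexus RNA. The part of choroid plexus, vessel wall and depth differences in the neuronal and myelin lists was not tested beyond the values given.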

How the data were processed

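The kit, per the labels' protocols, was TruSeq RNA Sample Prep Kit v2, which does not keep strand, so overlapping genes on opposite strands cannot be told apart. Trimmomatic 0.35, TopHat2 2.1.0, HTSeq, DESeq2 and GRCm38 are named, without roles or order, in the submitters' processing notes, with the authors' annotation release not given in the sources used here. Each deposited value is a normalized signal for an Ensembl gene ID, a read count scaled by 1 factor per library. This follows from the values: in each library all were whole multiples of 1 step (0.807 to 1.13), 100% within 0.001 reads. The table held 46078 gene IDs, 45143 of them with a symbol in GENCODE M21 and 935 without, and 0 columns of other samples.

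limma 3.58.1 in R 4.3.3, with its trend option, was fitted to log2(value + 1) of the 6 male libraries for the 17473 IDs with a mean of at least 10 (28605 were not tested). Fold changes on this scale understate those of low genes. Alternatives used edgeR 4.0.16, DESeq2 1.42.0 and limma-voom on the recovered reads, other filters and pseudocounts, all 12 libraries, the choroid plexus score as a covariate, a replicate block, and fits without single libraries. Within groups, recovered reads differed by more than sampling noise (chi-square per degree of freedom 3.22 to 27.6), so no library was a duplicate. Named genes were Chd8 and Ttr, the 10 genes of smallest p in each direction, the 10 in each direction with a mean of at least 50 and separated genotypes that differed by under 0.5 (log2) between wild-type female 1 and the other wild-type females, and up to 3 of highest level and 3 of smallest p in each list. A few other separated list members were named after their values were seen. The comparison, gene lists and rules were chosen with earlier results of these data known. The 34 lists held 435 entries, all matched. The script was tested on simulated counts. The values of some list members are not reported here.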

Additional observations from a re-analysis of the deposited data

How the results depend on the processing

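The count of genes past an adjusted p of 0.05 in the male comparison was 0 with limma, edgeR, limma-voom, upper-quartile scaling, other pseudocounts and filters, all 12 libraries in the fit, and the choroid plexus score in 12 libraries. It was 58 (16 higher, 42 lower) with DESeq2, 62 (23 higher, 39 lower) with the score as a covariate in the 6 male libraries, 158 (40 higher, 118 lower) without mutant males 2 and 3, and 14 (5 higher, 9 lower) in 12 libraries without the 3 low in choroid plexus RNA. The last 2 fits, and in effect the covariate fit of 6 libraries, rest on mutant male 1 alone. Leaving out 1 library at a time gave 0 to 829 genes (0 to 99 higher, 0 to 730 lower), the highest being without mutant male 1, and 0 to 1 for the male minus female difference. Chd8 was past the threshold with DESeq2 (-0.23, adjusted p 0.0158), and ranged from -0.26 to -0.20 when 1 library was left out. The cause of these changes was not tested. The main limma fit called 0 genes, so none of its calls could reverse. None of the 191 named genes besides Chd8 was called in another fit with the sign opposite to the main fit. Other genes were not checked in this way.

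List medians changed sign for 10 of 32 lists with the covariate in 12 libraries, 11 in 6 libraries, 12 without mutant males 2 and 3, and 0 with edgeR, DESeq2 or limma-voom. The labels give both genotypes the replicate numbers 1 to 3. Same-numbered males correlated at 0.0782, 0.0982 and 0.0089 in their deviations from the group means. Males of unlike number correlated at -0.124 to 0.0724, and wild-type male 3 correlated best with mutant male 1. With 3 libraries per genotype these values cannot decide whether the numbers mark pairs. A replicate block left the count at 0 genes. Depth limits genes near the minimum mean of 10.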

Other observations

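Mutant male 1 also stood apart for further genes, of which a few are given. Apart from Trh, these lay outside the rule for named genes and were chosen after their values were seen. Calcr, the calcitonin receptor, was at 61.9 normalized counts in it, while the other 5 male libraries held 0 to 1.61. Trh, described above with the neuropeptides, had 69.6 there and 0.807 to 12.5 in the others. Cartpt, a peptide precursor, had 133 in mutant male 1 against 22.6 to 38.0, and Greb1, an oestrogen-induced gene, 86.2 against 15.2 to 45.4. Fbxl17, an F-box protein of ubiquitin ligases, was lower in that library, with 1001 against 1609 to 1755. Ndn, Baiap3 and Ecel1 differed from the wild-type males by -1.41, 2.04 and 2.29 (log2) in mutant male 1. In mutant males 2 and 3 these genes differed by -0.26, 0.35 and 0.11.

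In 12 libraries without the 3 low in choroid plexus RNA, the 14 genes past limma's threshold in males were Cdh4, Wdfy1, Calcr, Usp29 and Greb1 (higher) and Fbxl17, Ndrg1, Adamts4, Mag, Myrf, Nfasc, Sytl2, Hipk2 and Sox10 (lower). These were also named after their values were seen, and mutant male 1 is the only mutant male in that fit. Mag, Myrf and Sox10 are oligodendrocyte genes.

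Wdfy1, an endosomal adaptor of Toll-like receptor signalling, had 2 levels across the 12 libraries. Wild-type males had 1087, 1159 and 1068 normalized counts and mutant males 1587, 985 and 1539. Wild-type females had 1657, 1531 and 1532 and mutant females 1043, 1031 and 1092. Without mutant male 2 it was the gene whose male minus female difference passed limma's threshold (log2 difference 1.08, adjusted p 0.000202).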
